A study of Homo sapiens with 6 samples.

Results

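The genes described here are those that make, receive and carry a WNT signal: the WNT ligands, the Frizzled receptors and a named set of co-receptors, antagonists, beta-catenin regulators and TCF/LEF transcription factors. Members were chosen by symbol, namely every WNT or FZD gene with a number and at most a letter A or B, together with LRP5, LRP6, LGR4, LGR5, RNF43, ZNRF3, SFRP1, SFRP4, DKK3, WIF1, AXIN1, AXIN2, APC, CTNNB1, GSK3B, TCF7, TCF7L1, TCF7L2, LEF1, ROR1, ROR2, PORCN, WLS, NKD1 and NKD2. This gave 54 of the 57781 genes in the table. The cells were A549, an established line from a human lung adenocarcinoma, and RNA sequencing covered 3 libraries with empty vector (vector, genotype given as WT) and 3 in which short hairpin RNA depleted METTL3 (shMETTL3). METTL3 is the catalytic subunit of the complex that writes N6-methyladenosine (m6A) on RNA. By the study's methods, hairpin sequences were cloned into a plasmid carrying a neo marker. All libraries came from a single line. The count columns call the knockdown libraries sh1 to sh3, and if these were different hairpins, the SD of the group includes the difference between them. The question put to the data was how the RNA of each member differed between shMETTL3 and vector.

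WNT proteins are secreted lipid-modified ligands. PORCN adds the lipid and WLS escorts the ligand to the cell surface, where it binds a Frizzled receptor together with the co-receptor LRP5 or LRP6. Without ligand, a destruction complex of AXIN, APC and GSK3 marks beta-catenin (CTNNB1) for degradation. With ligand, beta-catenin accumulates and acts with TCF/LEF factors at target genes, while other ligands act through ROR receptors and planar polarity proteins independently of beta-catenin. In lung, this signal is known for its part in airway branching and in the upkeep of alveolar epithelium.

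SFRP1 and DKK3, grouped here as secreted antagonists, and the receptor ROR1 rose most, by 13.6-fold, 7.97-fold and 9.42-fold. WNT5A, WNT3, PORCN, FZD2, NKD1, APC and AXIN2 also rose. The R-spondin receptor LGR4, the ligand escort WLS, WNT9A, WNT10B, AXIN1 and the TCF/LEF factors LEF1, TCF7 and TCF7L2 fell. The most abundant ligand, WNT7B, and the co-receptor LRP5 did not pass the test. Of the 54 members, 39 had enough counts to be tested. In edgeR (quasi-likelihood test, Benjamini-Hochberg adjusted over 15125 genes), 30 of these 39 were called changed at an adjusted p under 0.05, 21 higher and 9 lower. Over all genes tested, 66.6% were called, 33.7% higher and 32.9% lower, against 76.9%, 53.8% and 23.1% of the tested members. The median log2 fold change of the tested members was 0.26, against 0.00218 over all genes. A log2 change of at least 1 in size among called genes was met by 12 members that rose and 2 that fell, or 14 of 39, where 17.6% of all genes met it. The 3 vector and 3 shMETTL3 values did not overlap in 34 of the 39 members, including all 30 called, where 69.4% of all genes did not overlap. Members that passed the filter on low counts only through the group in which they were high had to differ, so these counts describe the list and support nothing further.

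Library totals ran from 14931426 to 19108928 counts, so that 3 counts stood at 0.15 to 0.189 CPM, the count per 1e6 counts of the TMM-scaled library. METTL3 counts were 887, 846 and 808 in vector and 364, 399 and 307 in shMETTL3, and the gene fell to 38.8% of its vector level (49.9 ± 0.676 to 19.4 ± 0.525 CPM, SD, n = 3; log2 fold change -1.36, standard error 0.067, adjusted p = 4.57e-16 by edgeR). Its exons overlap those of TOX4 on the other strand. By exact permutation (two-sided), p was 0.1, the lowest value possible with 3 libraries against 3. The study's methods speak in general of independent repeats of its experiments, but the labels do not say whether the libraries of a group came from separate cultures. The p-values then measure only the spread between these samples, which may be technical. The epithelial markers EPCAM, KRT8, KRT18, KRT19 and CDH1 were all present and all 5 fell, from a summed 8980 to 9590 CPM in vector to 3930 to 4320 CPM in shMETTL3. Fibroblast markers summed to 6.41 to 9.56 CPM and 13.8 to 14.4 CPM, with COL1A1 called higher, LUM not called (log2 fold change 0.46), and COL1A2, DCN and PDGFRB at no more than 7 counts in any library. Endothelial markers summed to at most 0.123 CPM in vector and to 1.4 to 1.89 CPM in shMETTL3. All of it came from CDH5, with VWF at 0 and PECAM1 without a row in the count table. Leukocyte markers summed to at most 0.189 CPM. The part of these markers in the members' changes was not tested, and in bulk RNA fewer cells of a kind and less RNA per cell cannot be told apart. Scaling by library size alone, in place of the TMM scaling used for all values here, shifted the all-gene median by 0.17 on the log2 scale. It called 26 members higher and 7 lower, so that 78.8% of the called members were higher instead of 70.0%, and over all genes 65.8% instead of 50.6%.

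**Figure D1:**
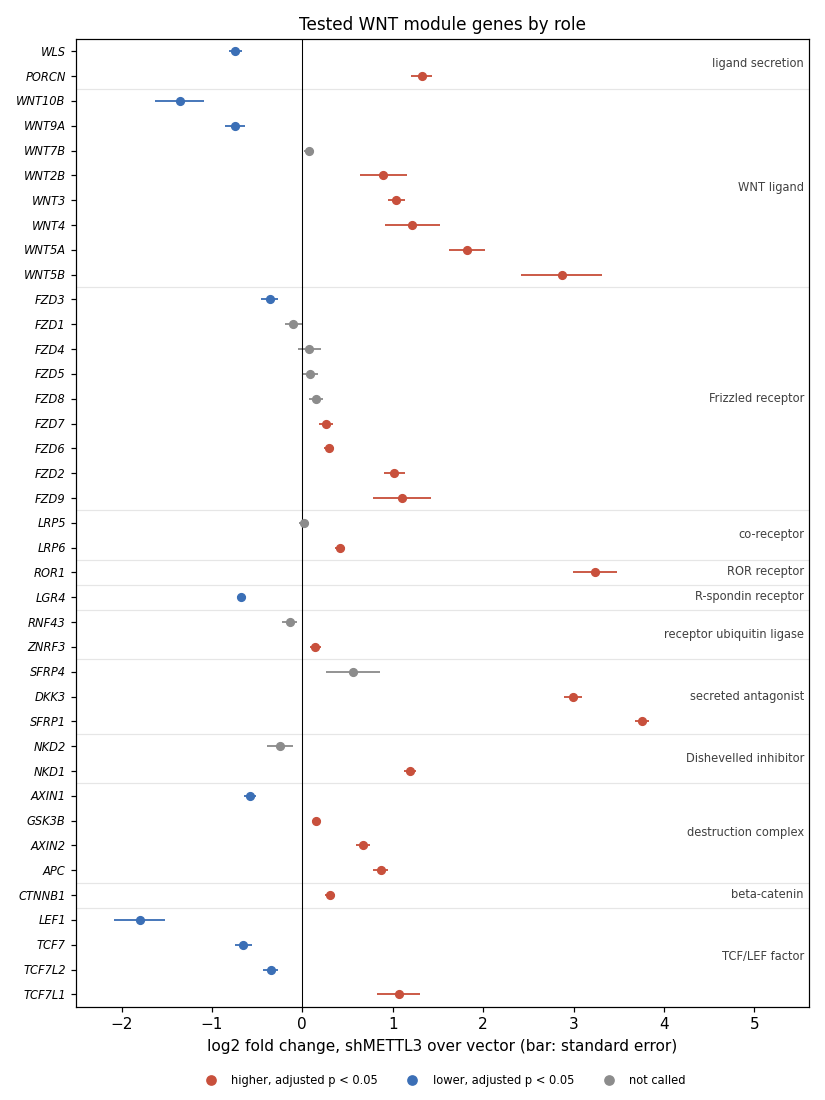
The log2 fold change of shMETTL3 over vector (horizontal axis) is plotted for each of the 39 tested members, grouped by role, with bars of 1 standard error and 3 libraries a group. SFRP1, ROR1, DKK3 and WNT5B lie farthest to the right, LEF1 and WNT10B farthest to the left, and 9 grey points mark members that were not called.

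The genes that equip the ligands for secretion moved in opposite directions. PORCN, the acyltransferase that attaches the lipid, had 100, 82 and 102 counts in vector and 246, 291 and 231 in shMETTL3. Its level rose 2.50-fold, from 5.58 ± 0.672 to 13.9 ± 1.03 CPM (SD, n = 3; log2 fold change 1.32, standard error 0.119, adjusted p = 1.6e-10). PORCN lies on chromosome X (GRCh37 48367347 to 48379202, plus strand), where the 437 tested genes had a median log2 fold change of 0.738. WLS, the sorting receptor that carries the ligands outward, had 659, 572 and 607 counts against 403, 445 and 341, and fell from 36.0 ± 1.59 to 21.5 ± 0.663 CPM (log2 fold change -0.74, standard error 0.071, adjusted p = 5.01e-10). The whole range of each gene in shMETTL3 lay outside its range in vector.

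Of the 19 ligands, 8 could be tested, and 5 rose, 2 fell and 1 was not called, where 66.6% of all genes were called. WNT7B, a ligand of the lung epithelium, held 1818, 1724 and 1919 counts in vector and 2141, 2312 and 1773 in shMETTL3. Its CPM ranges overlapped, at 107.4 ± 8.93 and 112.6 ± 2.37 CPM (log2 fold change 0.07, adjusted p = 0.286). It was called higher with library size alone (0.24, adjusted p = 0.000359) and without vector library 3 (0.13, adjusted p = 0.014). WNT3, which acts through beta-catenin (chromosome 17, GRCh37 44839872 to 44910520, minus strand), had 166, 149 and 151 counts in vector and 374, 374 and 291 in shMETTL3. It rose 2.06-fold, from 9.14 ± 0.193 to 18.8 ± 0.532 CPM (log2 fold change 1.04, standard error 0.093, adjusted p = 1.29e-10). WNT9A went the other way, from 219, 250 and 218 counts to 165, 162 and 118 (13.5 ± 1.39 to 8.02 ± 0.559 CPM, log2 fold change -0.75, standard error 0.11, adjusted p = 1.24e-06).

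The ligands best known for signalling independently of beta-catenin, WNT5A and WNT5B, both rose from low levels. WNT5A (chromosome 3, GRCh37 55499743 to 55524567, minus strand) had 28, 21 and 28 counts in vector and 109, 90 and 96 in shMETTL3. This was a 3.54-fold rise from 1.51 ± 0.234 to 5.39 ± 0.809 CPM (log2 fold change 1.82, standard error 0.199, adjusted p = 6.45e-09). WNT5B stood near the floor of 3 counts in vector, with 2, 4 and 3 counts, and at 28, 29 and 17 counts in shMETTL3. Summed over libraries, the ratio was 7.59 with a 95% exact counting interval of 3.79 to 17.2, which covers counting error only (adjusted p = 1.99e-06). WNT5B passed the filter on low counts only through the shMETTL3 libraries, so it had to differ and its p is no independent support. No shMETTL3 library of either gene fell within the vector range.

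WNT4, known from kidney and gonad development, rose from 12, 12 and 26 counts to 55, 42 and 30 (log2 fold change 1.21, standard error 0.302, adjusted p = 0.000888). Vector library 3 was the highest of the group and close to the lowest shMETTL3 library, and without it the log2 fold change was 1.71. WNT2B had 24, 26 and 14 counts in vector and 36, 52 and 41 in shMETTL3 (log2 fold change 0.89, standard error 0.262, adjusted p = 0.00371). Its exons share up to 2598 bases with ST7L on the other strand, and it is not stated whether counting used strand, so its reads and those of ST7L (log2 fold change -0.19, adjusted p = 0.193) may not be separable. WNT10B, a ligand that acts through beta-catenin, fell from 41, 46 and 34 counts to 13, 22 and 16 (2.37 ± 0.344 to 0.926 ± 0.224 CPM, log2 fold change -1.35, standard error 0.272, adjusted p = 8.05e-05).

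**Figure D2:**
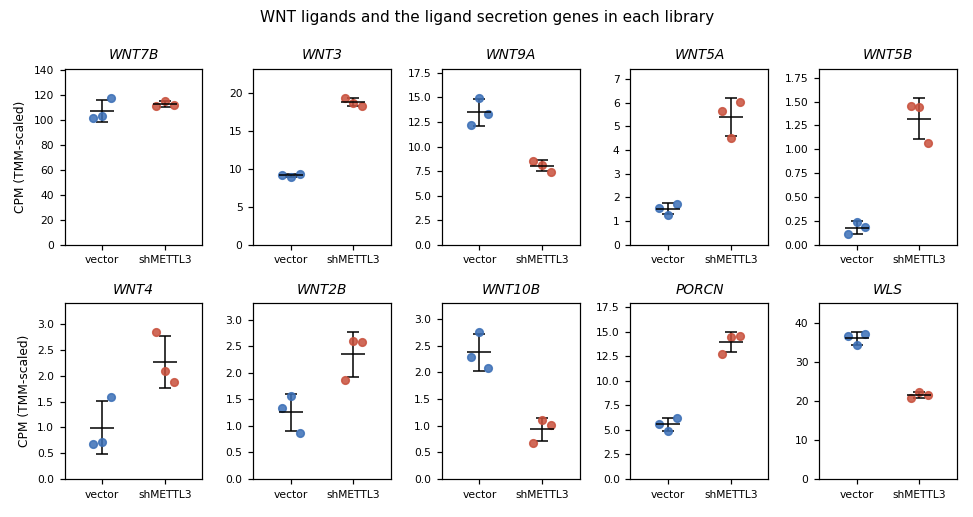
Level in CPM (vertical axis, TMM-scaled, starting at 0) of the 8 tested ligands and of PORCN and WLS in each vector (blue) and shMETTL3 (red) library, with mean and SD bars, n = 3. WNT3, WNT5A, WNT5B and PORCN are higher in every shMETTL3 library than in any vector library, WNT9A, WNT10B and WLS are lower, and WNT7B overlaps.

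To compare ligands with each other, CPM was divided by the length in kilobases (kb) of each gene's canonical transcript. On this scale WNT7B made up 76.8% ± 1.5 (SD, n = 3) of the summed ligand level in vector and 71.9% ± 1.38 in shMETTL3. WNT3 went from 7.87% ± 0.488 to 14.4% ± 0.312 and WNT9A from 9.55% ± 1.08 to 5.04% ± 0.295. WNT9A thus stood above WNT3 in each of the vector libraries and below it in each of the shMETTL3 libraries. The shares of WNT5A and WNT5B were 0.73% and 0.224% in vector and 2.33% and 1.49% in shMETTL3. The summed ligand level itself was 35.4 ± 2.32 CPM per kb in vector and 39.7 ± 0.557 CPM per kb in shMETTL3. These shares are a description, since a rise of 1 ligand lowers the share of the others.

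**Figure D3:**
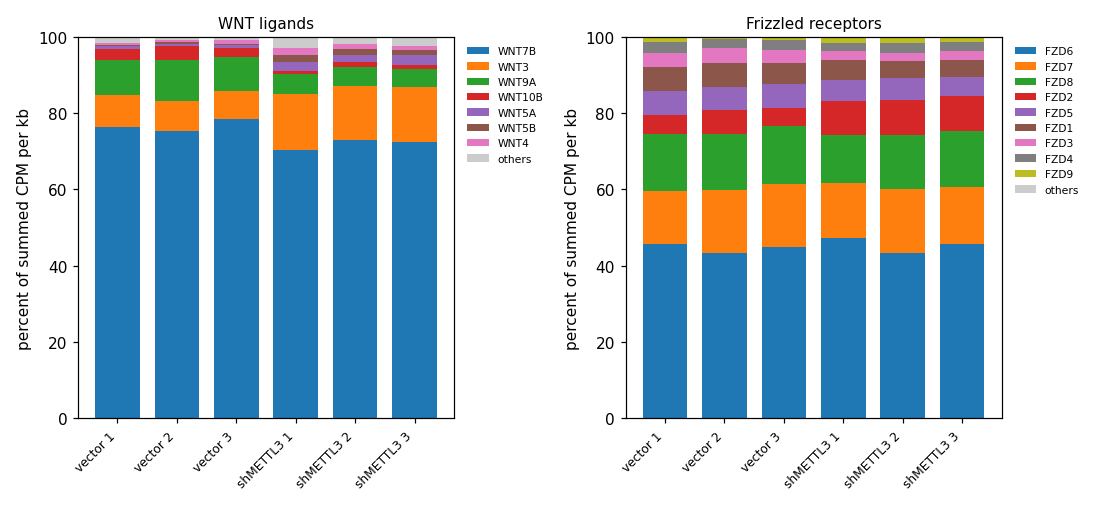
Each stacked bar is 1 library and shows what percentage (vertical axis) each gene held of the summed CPM per kb of the WNT ligands (left) and of the Frizzled receptors (right). WNT7B and FZD6 take the largest share in all 6 libraries, and the bands of WNT3 and FZD2 are wider in shMETTL3 than in vector.

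Of the 10 Frizzled receptors, the seven-pass membrane proteins that bind the ligands, 9 were tested, and 4 rose, 1 fell and 4 were not called, so that 55.6% were called against 66.6% of all genes. FZD2, which lies on the plus strand of chromosome 17 (GRCh37 42634852 to 42638630), had 124, 147 and 108 counts in vector and 284, 301 and 247 in shMETTL3. It rose 2.03-fold, from 7.44 ± 1.18 to 15.1 ± 0.43 CPM (log2 fold change 1.02, standard error 0.112, adjusted p = 6.84e-09). FZD9, near the low end, rose from 20, 8 and 11 counts to 36, 29 and 26 (log2 fold change 1.10, standard error 0.318, adjusted p = 0.00329). With 8 counts in vector library 2, it reached the low-count filter only with the shMETTL3 libraries, and a minimum of 10 counts in every library dropped it. The groups did not overlap for FZD2 or FZD9, but for FZD9 neither this nor its p is independent support.

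The most abundant receptor per length, FZD6, had 1104, 1012 and 991 counts in vector and 1502, 1380 and 1240 in shMETTL3, a 1.23-fold rise (60.9 ± 0.497 to 74.9 ± 5.26 CPM, log2 fold change 0.30, standard error 0.059, adjusted p = 7.68e-05). Smaller still was the rise of FZD7 (log2 fold change 0.26, adjusted p = 0.00492), which was no longer called without vector library 1 (0.17, adjusted p = 0.0645). FZD3 fell (log2 fold change -0.36, standard error 0.091, adjusted p = 0.000994), a change of -0.19 and an adjusted p of 0.0818 when libraries were scaled by size alone. It lies on chromosome 8, where the 483 tested genes had a median log2 fold change of -0.227. FZD6 and SFRP1, which rose, and MYC and SCRIB, described below, which fell, lie on chromosome 8 too. The receptors FZD1, FZD4, FZD5 and FZD8 were not called, with log2 fold changes from -0.10 to 0.15 and adjusted p from 0.0886 to 0.603. Without shMETTL3 library 1, FZD8 was called higher (0.21, adjusted p = 0.0379). FZD4 shares 1255 exon bases with PRSS23 on the other strand, which had up to 10720 counts against at most 164 for FZD4. As shares of the summed Frizzled level, FZD6 held 44.7% ± 1.12 in vector and 45.4% ± 1.86 in shMETTL3, while FZD2 went from 5.37% ± 0.747 to 9.03% ± 0.284.

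The co-receptors differed from each other. LRP6 had 1298, 1227 and 1204 counts in vector and 1946, 2046 and 1429 in shMETTL3, and rose 1.34-fold (73.2 ± 0.774 to 97.6 ± 6.62 CPM, log2 fold change 0.42, standard error 0.0565, adjusted p = 2.92e-07). LRP5, with 2106, 2030 and 2212 counts against 2418, 2555 and 2002, stood at 124.8 and 126.3 CPM (log2 fold change 0.02, standard error 0.055, adjusted p = 0.797). Its pseudogene LRP5L held between 44 and 75 counts, and how reads shared between the copies were assigned is not stated. With library size alone LRP5 was called higher (log2 fold change 0.19, adjusted p = 0.00261).

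ROR1, a receptor tyrosine kinase that binds WNT5A, had one of the steepest changes of the list. It was listed with 9, 7 and 10 counts in vector and with 95, 101 and 73 in shMETTL3. This was a 9.42-fold difference, from 0.511 ± 0.0973 to 4.85 ± 0.228 CPM (log2 fold change 3.23, standard error 0.244, adjusted p = 4.06e-12), and the ratio of summed counts had a 95% exact interval of 6.37 to 14.9 for counting error only. ROR1, too, passed the low-count filter only through shMETTL3, which limits what its p can support. The gene spans 64239688 to 64647181 on the plus strand of chromosome 1 (GRCh37). ROR2, the other receptor of this family, stayed at 2 to 5 counts in all 6 libraries and was not tested.

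LGR4 binds R-spondins and thereby protects Frizzled receptors from removal. It had 7549, 6745 and 6226 counts in vector and 4982, 4897 and 3999 in shMETTL3. It fell by 0.68 on the log2 scale (402 ± 19.5 to 251.4 ± 6.9 CPM, standard error 0.051, adjusted p = 4.14e-12), and maps to chromosome 11 (GRCh37 27387508 to 27494337, minus strand). LGR5 had at most 2 counts in any library. Of the membrane ubiquitin ligases that remove Frizzled receptors, RNF43 was not called (log2 fold change -0.14, adjusted p = 0.156), but was called lower without vector library 1 (-0.23, adjusted p = 0.0304). ZNRF3 was called by a small margin (log2 fold change 0.14, adjusted p = 0.0419), and lost that call in DESeq2 (adjusted p = 0.09).

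SFRP1, SFRP4, DKK3 and WIF1 were grouped here as secreted antagonists, and whether each restrains the signal in these cells was not tested. Their summed level went from 11.3 to 12.5 CPM in the vector libraries to 121 to 123 CPM in the shMETTL3 libraries. SFRP1, a soluble protein with a Frizzled-like ligand-binding domain, had the largest difference in CPM among the 4 antagonists. Its counts were 107, 104 and 103 in vector and 1629, 1670 and 1323 in shMETTL3, a 13.6-fold rise from 6.17 ± 0.183 to 83.7 ± 0.607 CPM (log2 fold change 3.76, standard error 0.0765, adjusted p = 1.93e-24). DKK3, a divergent Dickkopf family member, rose 7.97-fold from 96, 66 and 74 counts to 712, 721 and 604 (4.61 ± 0.702 to 37.0 ± 1.04 CPM, log2 fold change 2.99, standard error 0.098, adjusted p = 6.26e-20). Exons of DKK3 overlap those of USP47 on the other strand, which rose by 0.62 on the log2 scale and had up to 1235 counts. SFRP4, with 16, 18 and 18 counts in vector and 22, 30 and 31 in shMETTL3, was not called (log2 fold change 0.56, adjusted p = 0.0948), but was called without shMETTL3 library 1 (0.74, adjusted p = 0.0475). WIF1 had at most 6 counts.

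Inside the cell, NKD1 binds Dishevelled and restrains the signal, and it is known as a gene that the pathway itself induces. It had 340, 334 and 314 counts in vector and 857, 927 and 667 in shMETTL3. It rose 2.28-fold, from 19.4 ± 0.54 to 44.2 ± 2.12 CPM (log2 fold change 1.19, standard error 0.071, adjusted p = 2.71e-14; chromosome 16, GRCh37 50582307 to 50683160, plus strand). NKD2, its paralogue, was not called (log2 fold change -0.25, adjusted p = 0.129).

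All 4 members of the destruction complex were called, 3 higher and 1 lower, where 66.6% of all genes were called and 33.7% were higher. APC, the scaffold lost in many colorectal tumours (chromosome 5, GRCh37 112043215 to 112181936, plus strand), had 235, 222 and 210 counts in vector and 480, 459 and 378 in shMETTL3, and rose 1.82-fold (13.1 ± 0.208 to 23.9 ± 0.983 CPM, log2 fold change 0.87, standard error 0.082, adjusted p = 4.64e-10). The paralogous scaffolds AXIN1 and AXIN2 moved apart. AXIN1 (chromosome 16, GRCh37 337440 to 402723, minus strand) fell from 1183, 1131 and 1238 counts to 913, 960 and 711 (69.8 ± 5.32 to 46.7 ± 1.64 CPM, log2 fold change -0.58, standard error 0.062, adjusted p = 4.81e-09). AXIN2, a target that the pathway induces in many tissues (chromosome 17, GRCh37 63524681 to 63557766, minus strand), rose from 398, 411 and 362 counts to 634, 742 and 637 (23.0 ± 1.4 to 36.7 ± 3.66 CPM, 1.59-fold, log2 fold change 0.67, standard error 0.078, adjusted p = 2.37e-08). GSK3B, the kinase that phosphorylates beta-catenin, went from 76.2 ± 0.288 to 84.8 ± 1.31 CPM (log2 fold change 0.16, standard error 0.052, adjusted p = 0.0109).

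CTNNB1, which encodes beta-catenin, had 3374, 3012 and 2689 counts in vector and 4435, 4401 and 3332 in shMETTL3. It rose 1.24-fold, from 177.7 ± 11.8 to 219.7 ± 9.91 CPM (log2 fold change 0.31, standard error 0.055, adjusted p = 1.95e-05), and maps to chromosome 3 (GRCh37 41236232 to 41301587, plus strand). These are levels of RNA, and protein, on which the destruction complex acts, was not measured in this series.

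**Figure D4:**
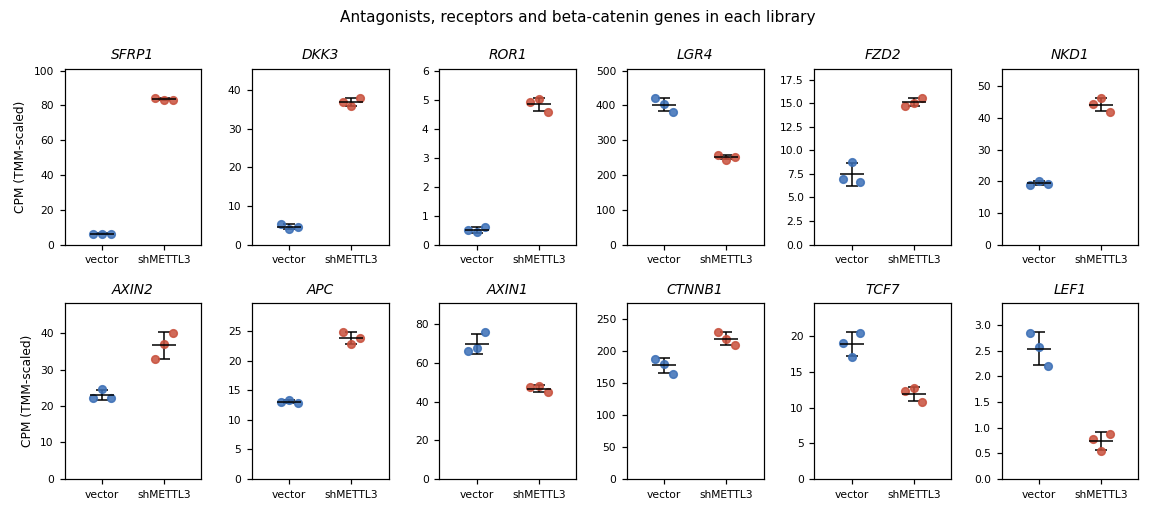
Level in CPM (vertical axis, TMM-scaled, starting at 0) of 12 antagonists, receptors, beta-catenin regulators and transcription factors in each vector (blue) and shMETTL3 (red) library, with mean and SD bars, n = 3. In each panel the groups are separate, with LGR4, AXIN1, TCF7 and LEF1 lower in shMETTL3 and the other 8 higher.

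The TCF/LEF factors, which bind DNA and recruit beta-catenin, were all 4 called, 3 lower and 1 higher, where 66.6% of all genes were called and 32.9% were lower. LEF1, often induced by the pathway, fell from 51, 43 and 36 counts to 15, 11 and 14 (2.54 ± 0.319 to 0.736 ± 0.17 CPM, log2 fold change -1.80, standard error 0.278, adjusted p = 2.21e-06; chromosome 4, GRCh37 108968701 to 109090112, minus strand). TCF7 fell from 343, 286 and 334 counts to 238, 255 and 172 (18.9 ± 1.69 to 12.0 ± 0.995 CPM, log2 fold change -0.65, standard error 0.095, adjusted p = 9.14e-07), and shares 210 exon bases with SKP1 on the other strand, whose counts reached 3936. TCF7L1, mainly known as a repressor, rose from 24, 21 and 25 counts to 43, 65 and 51 (log2 fold change 1.07, standard error 0.235, adjusted p = 0.000248). The groups did not overlap for any of these. TCF7L2 had 395, 385 and 365 counts in vector and 316, 394 and 266 in shMETTL3, and fell from 22.5 ± 0.526 to 17.6 ± 1.8 CPM (log2 fold change -0.35, standard error 0.084, adjusted p = 0.000638). With library size alone its log2 fold change was -0.18 and it was not called (adjusted p = 0.0679). Per kilobase, TCF7 and TCF7L2 made up 46.2% and 44.4% of the family in vector and 39.9% and 47.2% in shMETTL3, and the share of TCF7L1 went from 3.7% to 10.6%. The summed level of the family was 12.4 ± 0.423 CPM per kb in vector and 9.13 ± 0.694 CPM per kb in shMETTL3.

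Promoter windows were read from RefSeq (GRCh38.p14), from 250 bases before to 50 after each annotated start, for the 39 of 54 members that matched by symbol, which gave 49 windows. TCF/LEF factors recognise a core of CTTTG followed by A or T letters, so each window was searched on both strands for CTTTG and then 2 letters that are each A or T. A match occurred in 3 of the 49 member windows (6.12%), against 4829 of all 35116 windows (13.8%). No window was available for the other members, among them SFRP1, DKK3, AXIN2, NKD1 and WNT7B. Of the 49 windows, 12 belonged to members not tested, and 0 of these 12 held a match. The share therefore does not describe the whole module. TCF7 had 2 windows and TCF7L2 had 3, for different annotated starts, and in each gene 1 window held the match and the others did not. The 3 windows with a match are shown because they belong to a ligand that rose and to TCF/LEF factors that fell, 5′ to 3′ on the gene's strand with the match in capitals. The match begins 20 bases after the start of WNT3 (chr17:46818643-46818942, minus strand) and 133 bases before 1 start of TCF7L2 (chr10:113126383-113126682, plus strand). In TCF7 (chr5:134123368-134123667, plus strand) it begins 50 bases before 1 of the starts and is read on the opposite strand.
WNT3: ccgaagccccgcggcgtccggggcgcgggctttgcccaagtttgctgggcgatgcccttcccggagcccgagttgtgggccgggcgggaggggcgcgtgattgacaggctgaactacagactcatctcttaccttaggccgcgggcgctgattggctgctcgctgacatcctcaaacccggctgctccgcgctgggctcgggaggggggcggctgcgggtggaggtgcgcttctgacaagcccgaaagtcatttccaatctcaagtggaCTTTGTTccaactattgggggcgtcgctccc
TCF7L2: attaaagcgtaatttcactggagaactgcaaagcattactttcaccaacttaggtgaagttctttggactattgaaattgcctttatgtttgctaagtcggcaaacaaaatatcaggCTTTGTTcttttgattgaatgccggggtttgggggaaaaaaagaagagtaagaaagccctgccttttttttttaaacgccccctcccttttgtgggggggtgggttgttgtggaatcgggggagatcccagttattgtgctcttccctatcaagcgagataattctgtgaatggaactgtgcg
TCF7: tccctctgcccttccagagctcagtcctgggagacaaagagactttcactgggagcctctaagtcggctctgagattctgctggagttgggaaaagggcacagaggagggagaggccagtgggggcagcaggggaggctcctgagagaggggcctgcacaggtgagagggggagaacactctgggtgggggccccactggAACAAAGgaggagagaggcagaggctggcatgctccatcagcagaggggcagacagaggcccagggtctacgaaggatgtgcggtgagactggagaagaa
A match is a description of letters, and no binding was measured in this series.

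The member windows were rich in CpG, with a median of 28 CpG and 68.0% GC, against 14 CpG and 58.7% over all windows. Windows of members that rose held a median of 28 CpG (17 windows, 12 genes) and those of members that fell 18 (11 windows, 7 genes), while the medians were 31 for members not called and 35.5 for those not tested. The count of CpG did not separate the directions gene by gene, since WNT5B, which rose, held 10 and 7 CpG in its windows, and WNT9A and AXIN1, which fell, held 53 and 44. ROR1 and LEF1 are shown, with each CpG in capitals, as examples of large changes in opposite directions. They were chosen after their values were seen and do not stand for the other members. The ROR1 window (chr1:63773767-63774066, plus strand) held 29 CpG at 69.0% GC, and the LEF1 window (chr4:108166252-108166551, minus strand) held 9 at 47.0% GC.
ROR1: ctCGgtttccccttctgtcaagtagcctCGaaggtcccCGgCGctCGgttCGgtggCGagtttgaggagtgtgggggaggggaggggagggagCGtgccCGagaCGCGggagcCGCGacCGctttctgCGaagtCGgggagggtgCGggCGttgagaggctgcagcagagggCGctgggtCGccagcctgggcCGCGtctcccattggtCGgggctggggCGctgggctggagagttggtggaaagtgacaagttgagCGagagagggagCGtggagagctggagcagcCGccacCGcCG
LEF1: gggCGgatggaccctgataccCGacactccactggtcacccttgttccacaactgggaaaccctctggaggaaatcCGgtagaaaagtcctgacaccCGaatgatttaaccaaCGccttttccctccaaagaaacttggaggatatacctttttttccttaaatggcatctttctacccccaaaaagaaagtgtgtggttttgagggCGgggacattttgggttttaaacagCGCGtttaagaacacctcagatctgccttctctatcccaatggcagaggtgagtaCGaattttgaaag
Methylation of these windows was not measured here.

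Other genes of the pathway, taken from a list of 49 that holds no member, were called in 21 of 35 tested (60.0%, against 66.6% of all genes), 10 higher and 11 lower, with a median log2 fold change of -0.01. The largest rise was that of RSPO3, an R-spondin that binds LGR4, from 776, 672 and 679 counts to 4498, 4699 and 3882. This was 5.69-fold, from 41.7 ± 1.51 to 237.3 ± 6.31 CPM (log2 fold change 2.51, standard error 0.056, adjusted p = 1.25e-23), while its receptor LGR4 fell. Another R-spondin receptor, LGR6, rose from 69, 85 and 74 counts to 131, 167 and 121 (4.49 ± 0.623 to 7.58 ± 0.773 CPM, log2 fold change 0.76, adjusted p = 4.2e-05). PYGO1, a nuclear cofactor of beta-catenin, rose from 72, 58 and 67 counts to 306, 349 and 267 (log2 fold change 2.11, adjusted p = 7.95e-15). DKK1, a secreted antagonist that binds LRP5 and LRP6, rose from 2296, 2061 and 1805 counts to 6801, 6525 and 5077 (log2 fold change 1.46, adjusted p = 3.11e-18). The co-repressor TLE3 fell from 996, 906 and 1003 counts to 340, 361 and 247 (log2 fold change -1.74, adjusted p = 2.03e-17). FRAT2 and FRAT1, which bind GSK3, fell with log2 fold changes of -1.20 (adjusted p = 2.83e-12) and -1.04 (adjusted p = 1.58e-06). With library size alone, 18 of these genes were called higher and 11 lower.

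A list of 22 genes known as targets of beta-catenin in some tissue had 17 tested, of which 14 were called (82.4%, against 66.6% of all genes), 10 higher and 4 lower, with a median log2 fold change of 0.43. DKK1 stands on this list too. NRCAM, a neural cell adhesion molecule, rose 22.6-fold, from 46, 39 and 31 counts to 1030, 1010 and 809 (log2 fold change 4.50, adjusted p = 2.55e-23). EPHB2, an ephrin receptor of intestinal crypts, rose 9.55-fold, from 184, 130 and 167 counts to 1726, 1830 and 1427 (log2 fold change 3.26, adjusted p = 8.18e-23). TNFRSF19 rose from 25, 22 and 11 counts to 79, 78 and 53 (log2 fold change 1.73, adjusted p = 3.17e-07). SOX9, a transcription factor of progenitor cells, fell from 344, 365 and 323 counts to 217, 217 and 170 (log2 fold change -0.89, adjusted p = 1.68e-09). MYC, the proliferation regulator, and the Notch ligand JAG1 also fell, by 0.73 (adjusted p = 5.07e-12) and 0.29 (adjusted p = 1.34e-05) on the log2 scale. Target genes thus moved in both directions, but not evenly. At a log2 change of at least 1 in size, 7 of the 17 tested were higher and 0 lower. Of all genes, 17.6% met that size in either direction.

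Of 18 planar polarity genes, which act in the branch independent of beta-catenin, all were tested and 13 were called (72.2%, against 66.6% of all genes), 8 higher and 5 lower, with a median log2 fold change of 0.23. PRICKLE2, a cytoplasmic polarity protein, rose from 37, 49 and 33 counts to 193, 176 and 135 (log2 fold change 1.96, adjusted p = 2.25e-11). PTK7, a pseudokinase co-receptor, rose from 38, 33 and 27 counts to 115, 111 and 88 (log2 fold change 1.56, adjusted p = 1.09e-08). VANGL2, a core membrane polarity protein, rose from 39, 32 and 36 counts to 96, 126 and 97 (log2 fold change 1.46, adjusted p = 3.83e-08). The formin DAAM1 fell by 0.77 (adjusted p = 1.39e-06), the scaffold SCRIB by 0.48 (adjusted p = 1.44e-08) and the cadherin CELSR1 by 0.36 (adjusted p = 3.34e-06) on the log2 scale. With library size alone, 10 were called higher and 3 lower, and without shMETTL3 library 1, 10 were called in all, 3 of them lower.

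**Figure D5:**
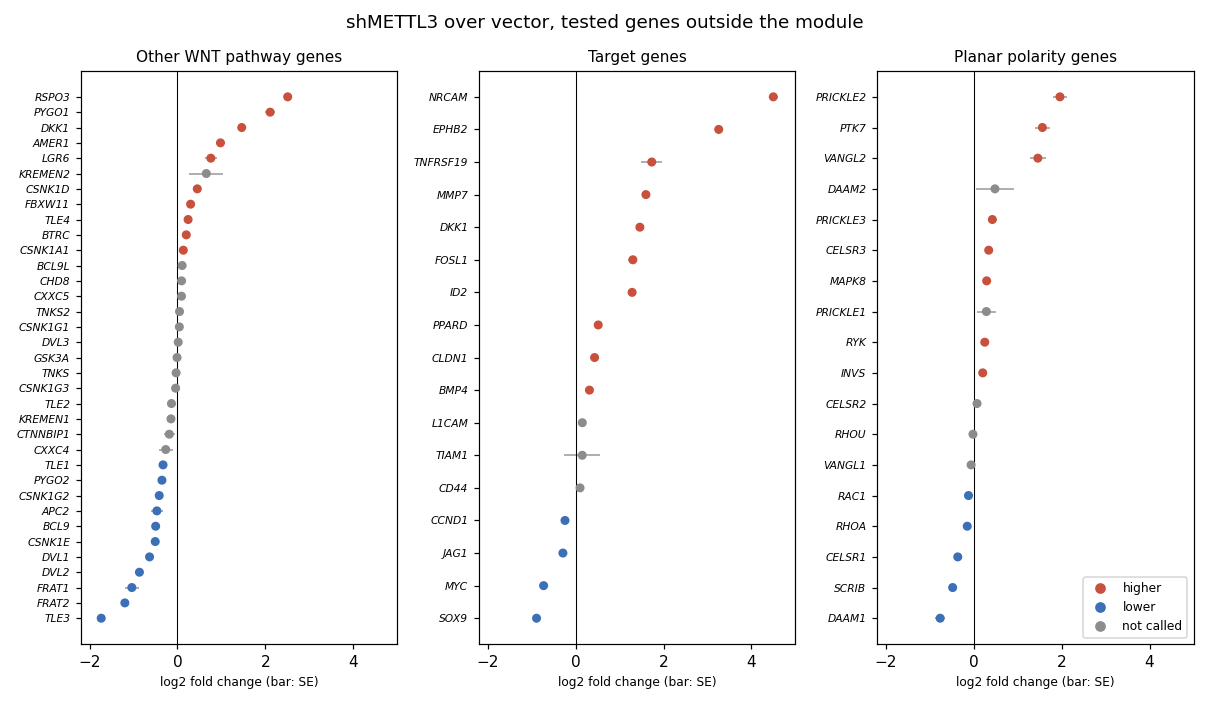
The log2 fold change of shMETTL3 over vector (horizontal axis) is plotted with bars of 1 standard error for the tested genes of 3 lists outside the members, coloured by call at an adjusted p under 0.05. RSPO3, NRCAM and PRICKLE2 lead the rises of their lists and TLE3, SOX9 and DAAM1 the falls, with 35, 17 and 18 genes in the panels.

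The remaining 15 members, 11 of them ligands, were too low to be tested. None exceeded 17 counts in a library, 9 had at most 3 counts in every library, and WNT1 and WNT8A had 0 in all 6. WNT8B had 4, 2 and 4 counts in vector and 17, 5 and 9 in shMETTL3, and WNT11 had 2, 3 and 2 against 7, 5 and 7. In the other direction, WNT16 had 1, 2 and 1 counts against 0, 0 and 0. WNT2 had 1, 0 and 0 counts against 6, 3 and 2, and its exons overlap those of CFTR on the other strand, which had up to 27 counts. CFTR rose too (log2 fold change 3.13, adjusted p = 4.45e-06 by edgeR), and the reads of WNT2 and CFTR may not be separable. No difference was tested in these genes at this depth. In the annotation, exons of 17 members overlapped those of a gene on the opposite strand, and for 9 of these members that gene had a row in the count table.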

How the data were processed

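RNA-seq libraries of A549 cells (3 vector, 3 shMETTL3) were grouped by sample title. Per the labels, the authors' processing used cutadapt 3.0, HISAT2 2.2.1, SAMtools 1.13 and HTSeq 0.13.5 with hg19, whereas the study's methods name other versions of the aligner and counter. The annotation and strand setting are not given in the sources used here. The authors deposited raw counts per gene, whole numbers without normalization or filtering, and all 6 columns were used.

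Counts were tested in R 4.3.3 with edgeR 4.0.16 (TMM, filterByExpr, glmQLFit, glmQLFTest, group only), with Benjamini-Hochberg adjustment over 15125 genes and a threshold of 0.05. The standard error is the unshrunk coefficient over the root of F. METTL3 was also compared by exact permutation of log2(CPM + 0.1). A value of 3 counts, or 0.15 to 0.189 CPM, was taken as the floor. Gene positions and canonical transcript lengths came from GENCODE for GRCh37, promoter windows from RefSeq for GRCh38.p14. The functions were tested on simulated data.

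Members and lists were chosen with earlier results of these data known. Genes described one by one are METTL3, called members with a log2 fold change of at least 0.5 in size, CTNNB1, APC, AXIN1, AXIN2, GSK3B, LRP5, LRP6, TCF7L2, ligands and Frizzled receptors with a mean of at least 1 CPM, and the 3 largest rises and falls of each other list. The other members were given by count or range. Those described with their values were LGR5, ROR2, RNF43, ZNRF3, SFRP4, WIF1, NKD2, WNT1, WNT2, WNT8A, WNT8B, WNT11 and WNT16. These and LGR6 were chosen after their values were seen, as were the promoters printed. Alternatives were RLE, upper-quartile and library-size scaling, DESeq2 1.42.0, limma-voom (limma 3.58.1), dropping the filter, a minimum of 10 counts in every library, a replicate block, each library left out, and a log2 fold change of at least 1.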

Additional observations from a re-analysis of the deposited data

How the results depend on the processing

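Apart from the minimum log2 fold change, 28 of the 39 tested members kept their direction and their side of the threshold under every alternative that could test them. Under these, between 27 (at least 10 counts in every library, which left out FZD9, ROR1 and WNT5B) and 33 members (library size alone) were called, against 30, and 29 in DESeq2. Leaving out each library gave 29 to 32. Requiring a log2 fold change of at least 1 left 14 of the 39 tested members, where 17.6% of all genes met it. It left 6 of the 35 other pathway genes tested, 7 of the 17 targets and 3 of the 18 planar polarity genes. FZD3 and TCF7L2 lost their call with library size alone, FZD7 without the first vector library and ZNRF3 in 6 settings. FZD5, FZD8, WNT7B, LRP5 and SFRP4 gained one with library size alone, FZD8 and SFRP4 also without shMETTL3 library 1, WNT7B also without vector library 3, and RNF43 without vector library 1. Without shMETTL3 library 1, planar polarity genes called lower went from 5 to 3. Not called there or with TMM scaling, FZD1 (0.0741) and RNF43 (0.0331) changed sign with library size alone, and LRP5 ranged from -0.0322 to 0.0745 with single libraries left out, at -0.00775 without the second vector library. The cause was not tested. The replicate numbers did not pair the samples, since deviations of same-numbered libraries correlated at 0.0507, -0.00575 and 0.0332, and with a replicate block 30 members were called. Depth limits the 15 untested members and weighs more on members with few counts, for which no cutoff was tested.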
